A study of Mus musculus with 23 samples.

Results

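The last step of a smooth muscle differentiation protocol was examined: what changed in A404 cells between 96 h of retinoic acid and the end of a further 48 h in puromycin. The samples were chosen by their titles, as the 6 arrays of the Puromycin group and the 6 arrays of the RA96 group, 12 of the 23 arrays of the series. A404 is a single clone of P19, a mouse embryonal carcinoma line. RA96 cells were changed at low density to medium with all-trans retinoic acid at 1 µmol/L and were lysed 96 h later. Puromycin cells had the same 96 h of retinoic acid followed by 48 h of puromycin, and whether retinoic acid stayed in the medium over those 48 h is not given in the labels. The remaining arrays are 6 of undifferentiated cells harvested at time 0 near confluence (Control) and 5 of cells after 48 h of retinoic acid (RA48). Each array set red-labelled RNA from 5 to 6 plates against green-labelled RNA pooled from whole mouse embryos of day 17.5, so every level below is a log2 ratio of cell over embryo RNA, and every change is a log2 difference, Puromycin minus RA96. No group was cultured for the same total time without puromycin, so drug selection, the longer culture and any removal of retinoic acid cannot be told apart.

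As background, the A404 line was made so that the promoter of Acta2, which encodes the alpha-actin of smooth muscle, drives puromycin resistance, and cells in which this promoter is active can survive the drug. Puromycin is taken into growing peptide chains on the ribosome and ends translation early. Smooth muscle genes such as Acta2 are driven by serum response factor and its cofactor myocardin through CArG boxes, while retinoic acid acts through nuclear receptors that bind repeated half-sites in target promoters such as that of Rarb, the retinoic acid receptor beta gene. In bulk RNA, a change in the mix of cells cannot be told apart from a change of RNA per cell.

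The promoters of Acta2, through which the cells were selected, and of Rarb, one of the largest falls, are shown because the comparison turns on both. The sequences are those of RefSeq on GRCm38.p6, 250 bases up to the start of the gene, read 5′ to 3′ along the gene's strand, with matches in capitals.
Acta2, chr19:34255374-34255623, minus strand: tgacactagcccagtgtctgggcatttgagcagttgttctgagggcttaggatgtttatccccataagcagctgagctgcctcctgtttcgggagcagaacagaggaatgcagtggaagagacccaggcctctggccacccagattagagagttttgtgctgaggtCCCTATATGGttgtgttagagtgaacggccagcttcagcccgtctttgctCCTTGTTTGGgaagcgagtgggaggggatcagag
Rarb, chr14:16575477-16575726, minus strand: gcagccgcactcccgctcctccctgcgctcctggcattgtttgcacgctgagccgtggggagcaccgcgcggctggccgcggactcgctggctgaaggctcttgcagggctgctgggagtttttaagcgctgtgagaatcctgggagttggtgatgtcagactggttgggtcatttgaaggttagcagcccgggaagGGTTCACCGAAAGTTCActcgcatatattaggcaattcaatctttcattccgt
In Acta2 the capitals mark 2 matches to a relaxed CArG box, CC, then 6 bases of which at least 5 are A or T, then GG, a pattern that reads alike on both strands. CCCTATATGG lies 84 to 75 bases before the start and CCTTGTTTGG 34 to 25 bases before it. At least 1 such match was found in 2823 of 32851 promoters of the same length (8.59%), and 2 or more in 220 (0.67%). In Rarb the capitals mark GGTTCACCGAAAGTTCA, 53 to 37 bases before the start, which matches a DR5 element, a direct repeat of nuclear receptor half-sites of 6 bases spaced by 5 bases, searched on both strands. Such a repeat was found in 29 of the promoters (0.0883%). These matches describe the letters of the window, and binding was not measured.

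The 12 arrays fell into 2 technical sets that the labels do not name. When group means were subtracted on all 23 arrays, the leading principal component held 48.9% of the variance within groups and put Puromycin replicates 1 to 3 with RA96 replicates 1 and 3 in a first set, and Puromycin replicates 4 to 6 with RA96 replicates 2, 4, 5 and 6 in a second. Pearson correlations over all rows between Puromycin arrays were 0.951 to 0.976 within a set and 0.810 to 0.842 across sets. RA96 arrays gave 0.834 to 0.968 within and 0.778 to 0.851 across, and the lowest value within a set was that of replicates 2 and 4. The set was therefore fitted as a block beside the group, and values are given by set below. Separate cultures for the replicates are not stated in the labels, so the spread behind each p-value may be technical.

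Of 8683 genes tested, 1518 (17.5%) were called at an adjusted p under 0.05, 871 higher in Puromycin (10.0%) and 647 lower (7.45%). The changes were mostly small: 1219 of the called genes moved by under 1.5-fold. A change of at least 2-fold was called for 69 genes, 41 of them higher (0.472% of the genes tested) and 28 lower (0.322%). In 1084 of the called genes the groups did not overlap within either array set, against 838 of all genes higher (9.65%) and 630 lower (7.26%) by that rule. Over all 17863 rows, probes without a gene included, 2281 were called (12.8%), 1302 higher (7.29%) and 979 lower (5.48%). Of the 2281, 2265 had one direction in both sets, which a call on 1 effect fitted over both sets favours. When each set was fitted alone, 1691 rows were called in the first and 1638 in the second. Of these, 502 were called in both with 1 direction and 19 in both with opposite directions. The stricter fit, which treated each pairing of group and set as a random batch, called 340 genes (3.92%), 190 higher and 150 lower. Its adjusted p or its count is given beside most genes and lists described below.

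Acta2 itself, on whose promoter the drug selected, was somewhat higher after puromycin. Its log2 ratios in RA96 were 1.86 and 1.99 in the first set and 1.78, 1.88, 1.69 and 2.03 in the second. In Puromycin they were 2.18, 2.23 and 2.13, and 2.77, 2.50 and 2.57. All 6 Puromycin arrays lay above all 6 RA96 arrays, with a difference of 0.25 in the first set and 0.77 in the second. The fitted change was 0.59 ± 0.18 (SE; 1.50-fold, adjusted p = 0.0302). The call was lost without the set in the fit (adjusted p = 0.163), in the first set alone (0.518), with the random batch (0.292) and on leaving out RA96 replicate 2, 4 or 5 or Puromycin replicate 2, 4 or 6 (0.0517 to 0.0725). For scale, the group means of Acta2 were -4.90 ± 0.65 in Control (SD, n = 6), -0.34 ± 0.14 in RA48 (n = 5), 1.87 ± 0.13 in RA96 (n = 6) and 2.40 ± 0.26 in Puromycin (n = 6). The step under puromycin was thus small beside the earlier steps of the same gene.

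The contractile apparatus did not move as one. Of 28 measured genes of smooth muscle contraction and its actin filaments, 11 rose and 2 fell, against 10.0% and 7.45% of all genes, and 15 were not called, with a median change of 0.22 against 0.00 over all genes (0.13 in the first set and 0.30 in the second). With the random batch 2 rose, Cav1 (adjusted p = 0.0101) and Hspb1 (0.0449), and 1 fell, Mylk (0.00327). Hspb1 is also counted among the chaperones below, and the rise of Acta2 was not called in that fit (0.292). Cav1, caveolin-1 of the membrane pits that smooth muscle is rich in, gave the largest rise, from -1.21 in both first-set RA96 arrays and -1.78 to -1.18 in the second set to -0.09 to 0.04 and -0.22 to -0.08 (1.39 ± 0.22, adjusted p = 0.000215). Hspb1, the small heat shock protein that binds actin filaments, rose by 0.72 ± 0.16 (adjusted p = 0.00401). Actg2, the enteric smooth muscle actin, rose by 0.66 ± 0.18 (adjusted p = 0.0163), a call lost with the random batch (0.329) and without the set in the fit (0.885).

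Cnn1, calponin 1, stood at 1.10 and 1.09 in first-set RA96 arrays and 0.51, 0.59 and 0.46 after puromycin, and at 0.25 to 0.63 and 0.09 to 0.29 in the second set, so the second-set groups overlapped (-0.34 ± 0.19, adjusted p = 0.283). The gene was called lower in the fit of the 12 arrays alone (-0.40, adjusted p = 0.00612) and in the first set alone (-0.58, adjusted p = 0.00477). Myh11, which encodes the myosin heavy chain of smooth muscle, differed by 0.14 ± 0.12 (adjusted p = 0.527), with 0.07 in the first set and 0.16 in the second. Its ratios ran from -2.11 to -1.81 in first-set RA96 and -1.98 to -1.84 in first-set Puromycin arrays. The second set lay far higher, with ratios up to 0.18 in RA96 and 0.13 in Puromycin. Myl9, the regulatory myosin light chain, differed by 0.29 ± 0.14 (adjusted p = 0.173), and was called higher in the fit of the 12 arrays alone (0.27, adjusted p = 0.0233). Its 3 second-set Puromycin arrays, at 1.62 to 2.03, lay above the 4 RA96 arrays of that set, at 1.41 to 1.52, and the first-set values were 1.24 to 1.29 against 1.08 and 1.15.

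Mylk, the myosin light chain kinase, fell. Its log2 ratios were -1.09 and -1.67 in first-set RA96 arrays against -2.87, -2.65 and -2.66 after puromycin. In the second set they were 1.39, 1.30, 1.57 and 1.79 against 0.40, 0.25 and 0.35. Both sets showed a fall of like size (-1.35 and -1.18), but the sets lay so far apart that all 12 arrays pooled overlapped. The fitted change was -1.33 ± 0.19 (2.51-fold lower, adjusted p = 8.04e-05) and was not called without the set in the fit (0.216). Pdlim7, a PDZ and LIM domain protein of actin filaments, was the other contractile gene that fell (-0.26 ± 0.06, adjusted p = 0.0078), with 1 of its 2 probes called and the call lost with the random batch (0.145). Tagln had no probe with its symbol alone and was not analysed here.

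**Figure D1:**
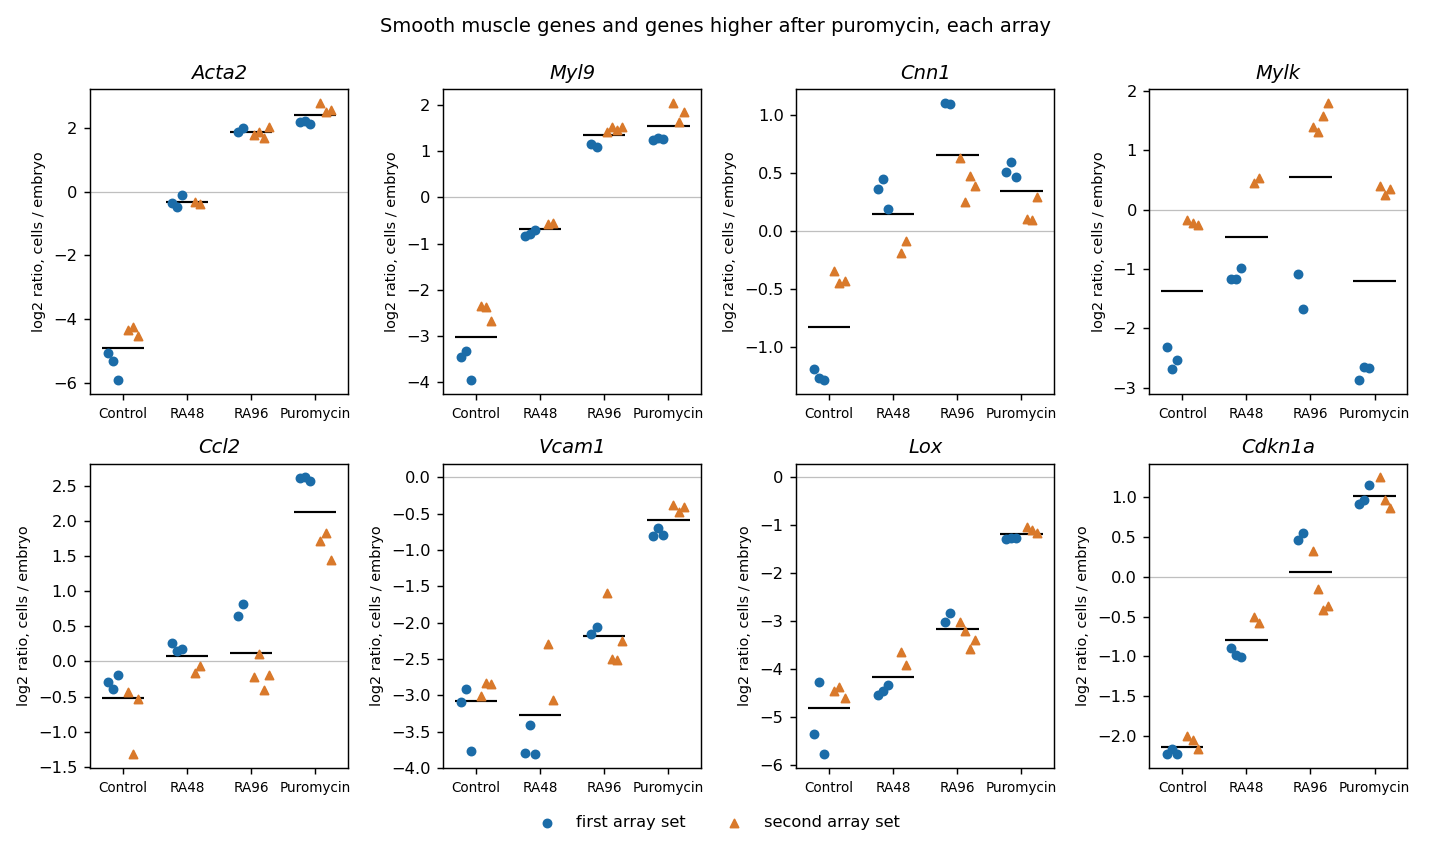
Log2 ratios of cell over embryo RNA (y axis) on each array for 4 contractile genes (top) and 4 genes that rose or arrest growth (bottom), by group; circles are the first array set, triangles the second, and bars the group means. Acta2 climbed from a mean of -4.90 in Control to 2.40 in Puromycin, Mylk fell in each set while the sets lay apart, and Ccl2, Vcam1, Lox and Cdkn1a were higher in all 6 Puromycin arrays than in all 6 RA96 arrays.

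Among 20 measured regulators of the smooth muscle programme, 3 rose and 1 fell (15% and 5.00%, median 0.02), against 10.0% and 7.45% of all genes, and 2 rose and 1 fell with the random batch. Klf4, a zinc finger factor that represses smooth muscle genes and is also a pluripotency factor, rose from between -1.26 and -1.07 to between -0.19 and -0.01 in the first set, and from between -2.16 and -0.98 to between -0.78 and -0.59 in the second (1.13 ± 0.20, adjusted p = 0.000628). Prrx1, a mesenchymal homeobox factor, rose by 0.51 ± 0.14 (adjusted p = 0.0234, 0.295 with the random batch), and Jag1, a Notch ligand, by 0.41 ± 0.05 (adjusted p = 3.81e-05). Wt1, the Wilms tumour factor of mesothelium and kidney, fell by 0.96 on the log2 scale (SE 0.17, adjusted p = 0.00068). Srf, the serum response factor gene, and Mrtfa, a myocardin-related cofactor, differed by 0.04 and -0.03 and were not called.

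Among called genes whose groups did not overlap within either set, clone names passed over, the largest rise was that of Clca3a1. It is a member of the calcium-activated chloride channel regulator family. Probes without a gene were not ranked. Its log2 ratios were 0.00 and -0.02 in first-set RA96 arrays and -0.24, -0.47, -0.71 and -0.06 in the second set, against 2.47, 2.50 and 2.55, and 2.48, 2.08 and 2.25 after puromycin. All Puromycin arrays lay far above all RA96 arrays (2.65 ± 0.18, 6.27-fold, adjusted p = 4.52e-09), and the sets gave 2.52 and 2.64. Tm4sf1, a small membrane protein of the tetraspanin-like family, rose by 1.96 ± 0.22 (adjusted p = 7.3e-06), from between -0.30 and 0.69 to between 1.45 and 2.39. Mir100hg, a long transcript that hosts microRNAs, rose by 1.51 ± 0.22 (adjusted p = 0.000104). Ccdc74a, a coiled-coil protein gene, rose by 1.32 ± 0.32 (adjusted p = 0.00884), with RA96 arrays of the second set spread from -2.35 to -0.07 and the call lost in that set alone (0.085) and with the random batch (0.232).

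The chemokine genes Ccl2 and Cxcl12 were higher on all 6 Puromycin arrays than on all 6 RA96 arrays. Ccl2, the chemokine that draws monocytes, read 0.65 and 0.82 in first-set RA96 arrays and -0.22, 0.11, -0.41 and -0.19 in the second set. After puromycin it read 2.61, 2.62 and 2.57, and 1.72, 1.83 and 1.45. The sets differed in level but gave nearly the same change, 1.86 and 1.84, and the fitted rise was 1.89 ± 0.14 (3.72-fold, adjusted p = 2.03e-08). Cxcl12, the chemokine that binds Cxcr4, read 1.83 and 1.93 in first-set RA96 arrays and 1.38, 1.04, 0.77 and 0.80 in the second set, then 2.52, 2.44 and 2.60, and 3.03, 2.91 and 3.00. Its rise of 1.42 ± 0.17 (adjusted p = 1.42e-05) was unequal between the sets, at 0.64 and 1.98 (adjusted p = 0.00105 for that difference). These were the 2 called of 13 measured genes in the list of chemokines and cytokines, both higher (15.4% against 10.0% of all genes) and both called with the random batch, and the list's median was -0.10. Ppbp, a chemokine precursor outside that list, fell and is described with the falls. The cytokine genes Il1b, Tnf and Lif differed by -0.28, -0.08 and -0.14 and were not called.

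Genes of the NF-kB pathway and its targets gave 8 rises and no fall among 22 measured (36.4% higher against 10.0% of all genes, median 0.17), and 3 rises with the random batch. Ptgs2, the inducible cyclooxygenase that makes prostaglandin precursors, read 4.02 and 4.36 in first-set RA96 arrays against 6.53, 6.57 and 6.48 after puromycin, and 2.69, 1.98, 2.04 and 2.05 against 3.83, 3.98 and 4.37 in the second set. The groups were apart within each set but not over all 12 arrays (2.18 ± 0.30, 4.54-fold, adjusted p = 4.4e-05). Vcam1, the adhesion molecule that leukocytes bind on vessel walls, rose from between -2.51 and -1.59 to between -0.80 and -0.38 (1.65 ± 0.19, adjusted p = 8.46e-06). Fas, the death receptor gene, rose by 0.66 ± 0.15 (adjusted p = 0.00537, 0.201 with the random batch). Rel, Tnfaip3 and Nfkb2, pathway genes that NF-kB itself induces, rose by 0.53, 0.44 and 0.36 (0.255, 0.464 and 0.0233 with the random batch), while Rela, a main DNA-binding subunit, and Nfkbia, its inhibitor, differed by 0.13 and 0.23 and were not called. The NF-kB list and the other lists were drawn up with earlier results of these data known.

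Other immune response lists were counted in the same way. Of 20 measured interferon response genes 3 rose and 1 fell (15% and 5.00% against 10.0% and 7.45% of all genes, median 0.00; 1 rise with the random batch), with Rsad2, an antiviral enzyme, the largest rise at 0.56 ± 0.09 (adjusted p = 0.000192). Of 10 antigen presentation genes 1 rose and none fell (10.0% higher against 10.0% of all genes). The rise was that of B2m, the light chain of class I molecules, at 0.37 ± 0.08 (adjusted p = 0.00379, 0.143 with the random batch). Of 15 complement and coagulation genes 3 rose and 3 fell (20% each way against 10.0% and 7.45%), with no rise and 1 fall under the random batch. Anxa5, F3 and Tfpi rose by 0.59, 0.58 and 0.41, none of them called with the random batch (adjusted p = 0.131, 0.242 and 0.308). F3 had 1 of its 2 probes called, and Tfpi had 1 of 3 called and 1 of opposite sign. Clu, C1s1 and Serping1 fell by 1.33, 0.53 and 0.48 on the log2 scale, of which C1s1 and Serping1 were not called with the random batch (0.116 and 0.26).

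Immediate early and AP-1 genes gave 6 rises and 1 fall among 20 measured (30.0% and 5.00% against 10.0% and 7.45% of all genes). The median was 0.10, and 3 rose and 1 fell with the random batch. Fosl1, an AP-1 subunit, rose by 1.29 ± 0.23 (adjusted p = 0.000823), Ier3, an early response gene, by 1.27 ± 0.19 (adjusted p = 0.000108) and Dusp4, a phosphatase of MAP kinases, by 1.08 ± 0.16 (adjusted p = 0.00014). The sizes differed between the sets for Fosl1, at 1.89 and 0.73 (adjusted p = 0.0359 for the difference), and for Ier3, at 0.65 and 1.77 (adjusted p = 0.0335). Atf3, another stress-induced factor, fell by 0.58 on the log2 scale (SE 0.12, adjusted p = 0.00183). Fos, Jun and Egr1, the classical members of the group, differed by -0.15, -0.29 and -0.15 and were not called.

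Several matrix genes rose. Lox, the enzyme that crosslinks collagen and elastin, read -3.02 and -2.82 in first-set RA96 arrays and -3.02, -3.21, -3.57 and -3.38 in the second set, against -1.29, -1.26 and -1.26, and -1.04, -1.10 and -1.16 after puromycin. The groups were far apart on all 12 arrays (2.03 ± 0.20, 4.09-fold, adjusted p = 1.29e-06), and both probes of the gene were called. Of 15 measured crosslinking and collagen processing genes 4 rose and 1 fell (26.7% and 6.67% against 10.0% and 7.45% of all genes). The median was 0.20, and 2 rose and none fell with the random batch. Plod2, a lysyl hydroxylase, rose by 0.81 ± 0.18 (adjusted p = 0.00366), almost all of it in the second set (0.15 and 1.36, adjusted p = 0.000135 for the difference). Loxl2 rose by 0.48 ± 0.12 (adjusted p = 0.0137, 0.284 with the random batch), with 1 of its 2 probes called. Loxl4 fell by 0.56 on the log2 scale (SE 0.14, adjusted p = 0.012, 0.0596 with the random batch).

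Of 31 interstitial matrix genes 7 rose and 1 fell (22.6% and 3.23% against 10.0% and 7.45% of all genes). The median was 0.25, and 4 rises were called with the random batch. Ccn4, a secreted matricellular protein, rose from between -0.45 and -0.18 to between 0.73 and 1.16 (1.32 ± 0.10, adjusted p = 2.03e-08). Thbs1, thrombospondin 1, rose by 1.09 ± 0.15 (adjusted p = 4.36e-05), with 0.48 in the first set and 1.54 in the second (adjusted p = 0.00712 for the difference), and Col8a1, a short-chain collagen of vessel walls, by 1.04 ± 0.20 (adjusted p = 0.00146). Dcn, the small proteoglycan decorin, fell by 0.52 on the log2 scale (SE 0.17, adjusted p = 0.0485, 0.314 with the random batch). The major fibril and elastic genes were not called: Col1a1 differed by 0.54, Col1a2 by -0.05, Col3a1 by -0.02, Eln by -0.13 and Fn1 by 0.11.

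Basement membrane genes changed in both directions. Col18a1, the collagen that holds endostatin, read 0.06 and 0.09 in first-set RA96 arrays and -0.35, 0.08, -0.12 and -0.04 in the second set, and -1.86, -1.76 and -1.73, and -1.56, -1.69 and -1.72 after puromycin. The fall was -1.69 ± 0.08 (3.22-fold lower, adjusted p = 3.47e-11), with both probes called. Lama1, the laminin alpha chain of embryonic basement membranes, fell from between 0.89 and 1.69 to between 0.18 and 0.29 (-1.14 ± 0.18, adjusted p = 0.000173). Against these, Nid1, which links laminin to collagen IV, rose by 0.89 ± 0.18 (adjusted p = 0.00172), Col4a2 by 0.74 ± 0.14 (adjusted p = 0.00123) and Col4a1 by 0.69 ± 0.13 (adjusted p = 0.00141). In all 4 of 16 rose and 2 fell (25.0% and 12.5% against 10.0% and 7.45% of all genes). The median was 0.08, and 3 rose and 2 fell with the random batch.

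Protease inhibitors and the annexin group also moved. Timp1, an inhibitor of matrix metalloproteases, rose by 1.02 ± 0.10 (adjusted p = 1.29e-06), Prss23, a serine protease, by 0.95 ± 0.16 (adjusted p = 0.000362) and Timp3 by 0.84 ± 0.15 (adjusted p = 0.000601), the last with 1 of its 2 probes called. Serpinf1, the secreted factor PEDF, fell from -1.18 and -1.31 to between -2.77 and -2.61 in the first set, and from between -0.81 and 0.22 to between -1.67 and -1.56 in the second (-1.51 ± 0.16, adjusted p = 1.86e-06). Adamts1, a metalloprotease, fell by 0.64 on the log2 scale (SE 0.11, adjusted p = 0.000431, 0.0624 with the random batch). Of 20 genes of this class 6 rose and 3 fell (30.0% and 15% against 10.0% and 7.45% of all genes). With the random batch 4 rose and 1 fell. Galectins, annexins and S100 proteins, many of which bind calcium, gave 7 rises and 1 fall among 20 (35.0% and 5.00%, median 0.34), and 4 and 1 with the random batch. S100a6 rose from between 2.09 and 3.29 to between 4.01 and 4.27 (1.43 ± 0.16, adjusted p = 5.42e-06). Anxa2, which binds membranes and plasminogen, rose by 1.26 ± 0.11 (adjusted p = 1.27e-07) and Anxa1 by 0.78 ± 0.12 (adjusted p = 0.00013), whereas Lgals3, galectin 3, fell by 1.19 on the log2 scale (SE 0.21, adjusted p = 0.000673).

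Actin regulators outside the contractile list gave 8 rises and 3 falls among 24 (33.3% and 12.5% against 10.0% and 7.45% of all genes, median 0.11), and 3 rises and no fall with the random batch. Gsn, gelsolin, which severs actin filaments, was near constant in RA96, from -1.24 to -1.05, and read 0.45 to 0.46 in first-set and -0.27 to -0.06 in second-set Puromycin arrays (1.32 ± 0.21, adjusted p = 0.000276). Msn, which ties actin to the membrane, rose by 0.61 ± 0.07 (adjusted p = 1.05e-05). Tmsb10, a thymosin that binds actin monomers, rose by 0.51 ± 0.13 (adjusted p = 0.00976, 0.141 with the random batch). Pxn, paxillin of focal adhesions, fell by 0.33 on the log2 scale (SE 0.10, adjusted p = 0.0395, 0.209 with the random batch), a call lost in 15 of 25 alternatives, and Cfl2, muscle cofilin, by 0.26 (SE 0.08, adjusted p = 0.0277, 0.178 with the random batch). Among 17 integrins and matrix receptors 2 rose and 3 fell (11.8% and 17.6%; 1 rise with the random batch), with Cd44, the hyaluronan receptor, up by 0.65 ± 0.09 (adjusted p = 4.7e-05; 2 of its 3 probes called, the third of opposite sign) and Itga9 down by 0.81 on the log2 scale (SE 0.20, adjusted p = 0.0109, 0.262 with the random batch).

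Genes that respond to retinoic acid were among the largest falls. Rarb, the receptor gene that retinoic acid induces, read 2.92 and 3.26 in first-set RA96 arrays and 2.56, 2.15, 2.15 and 2.36 in the second set. After puromycin it read 1.05, 0.83 and 0.84, and 0.91, 1.21 and 1.20. The Puromycin arrays of both sets lay together while the RA96 arrays differed by set, so the change was -2.18 in the first set and -1.20 in the second (adjusted p = 0.0111 for that difference). The fitted change was -1.60 ± 0.18 (3.03-fold lower, adjusted p = 6.4e-06). Group means were -0.24 ± 0.17 in Control (SD, n = 6), 2.77 ± 0.49 in RA48 (n = 5), 2.57 ± 0.44 in RA96 (n = 6) and 1.01 ± 0.17 in Puromycin (n = 6), so the level after puromycin was still above that of untreated cells.

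Stra6, the receptor through which cells take up retinol, read 0.44 and 0.57 in first-set RA96 arrays and -0.37, 0.06, 0.17 and 0.17 in the second set, against values from -1.21 to -1.09 on all 6 Puromycin arrays (-1.37 ± 0.12, adjusted p = 2.47e-07). Its Puromycin mean of -1.14 lay below the Control mean of -0.43. Of 18 measured genes of retinoic acid response and metabolism 5 fell and 1 rose (27.8% against 7.45% of all genes and 5.56% against 10.0%), and 2 falls were called with the random batch. Nr2f1, an orphan nuclear receptor that retinoic acid induces, fell by 0.65 on the log2 scale (SE 0.18, adjusted p = 0.0188, 0.182 with the random batch), and Meis2 and Nr2f2 by 0.57 and 0.52 (0.131 and 0.253 with the random batch). Aldh1a3, an enzyme that makes retinoic acid, rose by 0.55 ± 0.10 (adjusted p = 0.00126, 0.0843 with the random batch). The receptor genes Rara and Rxra differed by 0.28 and 0.29 and were not called, and Cyp26a1 had no probe with its symbol alone and was not analysed here.

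Hox genes, which retinoic acid switches on in order along each cluster, were split between members. Hoxa5 read 4.12 and 4.28 in first-set RA96 arrays and 3.67, 3.62, 3.46 and 3.30 in the second set, against 2.52, 2.43 and 2.50, and 1.91, 1.71 and 1.90 (-1.64 ± 0.14, 3.11-fold lower, adjusted p = 1.85e-07). Even so its Puromycin mean, 2.16 ± 0.36 (SD, n = 6), lay far above the Control mean of -1.36 ± 0.21 (n = 6). Hoxb5 fell by 0.62 on the log2 scale (SE 0.09, adjusted p = 0.000131) and Hoxc8 by 0.40 (SE 0.12, adjusted p = 0.0353, 0.226 with the random batch). These were the 3 of 14 measured Hox genes that fell (21.4% against 7.45% of all genes), 2 of them also with the random batch, and none rose. Hoxb4, Hoxa9 and Hoxb9 differed by -0.01, -0.06 and -0.07 and were not called, and the list's median was -0.07.

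Other large falls were of genes raised early in the protocol. Clu, the secreted chaperone clusterin, read 1.67 and 1.62 in first-set RA96 arrays and 1.35, 1.55, 1.34 and 1.23 in the second set, then 0.05, -0.14 and -0.19, and 0.32, 0.27 and 0.38 (-1.33 ± 0.14, adjusted p = 4.28e-06; by set -1.74 and -1.05, adjusted p = 0.0184 for the difference). Mecom, a zinc finger transcription factor, fell from between 0.81 and 1.85 to between -0.05 and 0.12 (-1.28 ± 0.13, adjusted p = 1.85e-06). Gas1, a membrane protein of growth-arrested cells that binds hedgehog ligands, fell from between 1.46 and 1.86 to between 0.29 and 0.51 (-1.36 ± 0.19, adjusted p = 8.09e-05). Agap3, an Arf GTPase-activating protein gene, fell within each set while the sets lay apart (-1.27 ± 0.21, adjusted p = 0.000338).

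Ppbp, a chemokine precursor best known from platelets, gave the largest fall among the genes ranked in the same way as Clca3a1. It read 1.49 and 1.63 in first-set RA96 arrays and 1.04, 0.18, -0.15 and 0.03 in the second set, then -2.03, -2.10 and -2.15, and -1.99, -2.52 and -2.23 (-2.89 ± 0.35, 7.43-fold lower, adjusted p = 1.2e-05). RA96 stood alone among the groups for this gene, since the means were -2.59 ± 0.89 in Control (SD, n = 6), -1.57 ± 0.25 in RA48 (n = 5) and -2.17 ± 0.19 in Puromycin (n = 6). Ecm1, a secreted matrix protein, also had its highest group mean at 96 h, at 1.19 against -1.41 in Control, -1.17 in RA48 and -0.19 in Puromycin (change -1.36 ± 0.23, adjusted p = 0.000434). Wfdc2, a small secreted protein of epithelia, fell by 1.56 on the log2 scale (SE 0.13, adjusted p = 1.05e-07), from a mean of 1.61 to 0.16. Prtg, a receptor-like protein of the early embryo, fell by 1.43 (SE 0.12, adjusted p = 7.25e-08) and Tnfrsf19, a receptor of the tumour necrosis factor family, by 1.38 (SE 0.10, adjusted p = 2.03e-08).

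**Figure D2:**
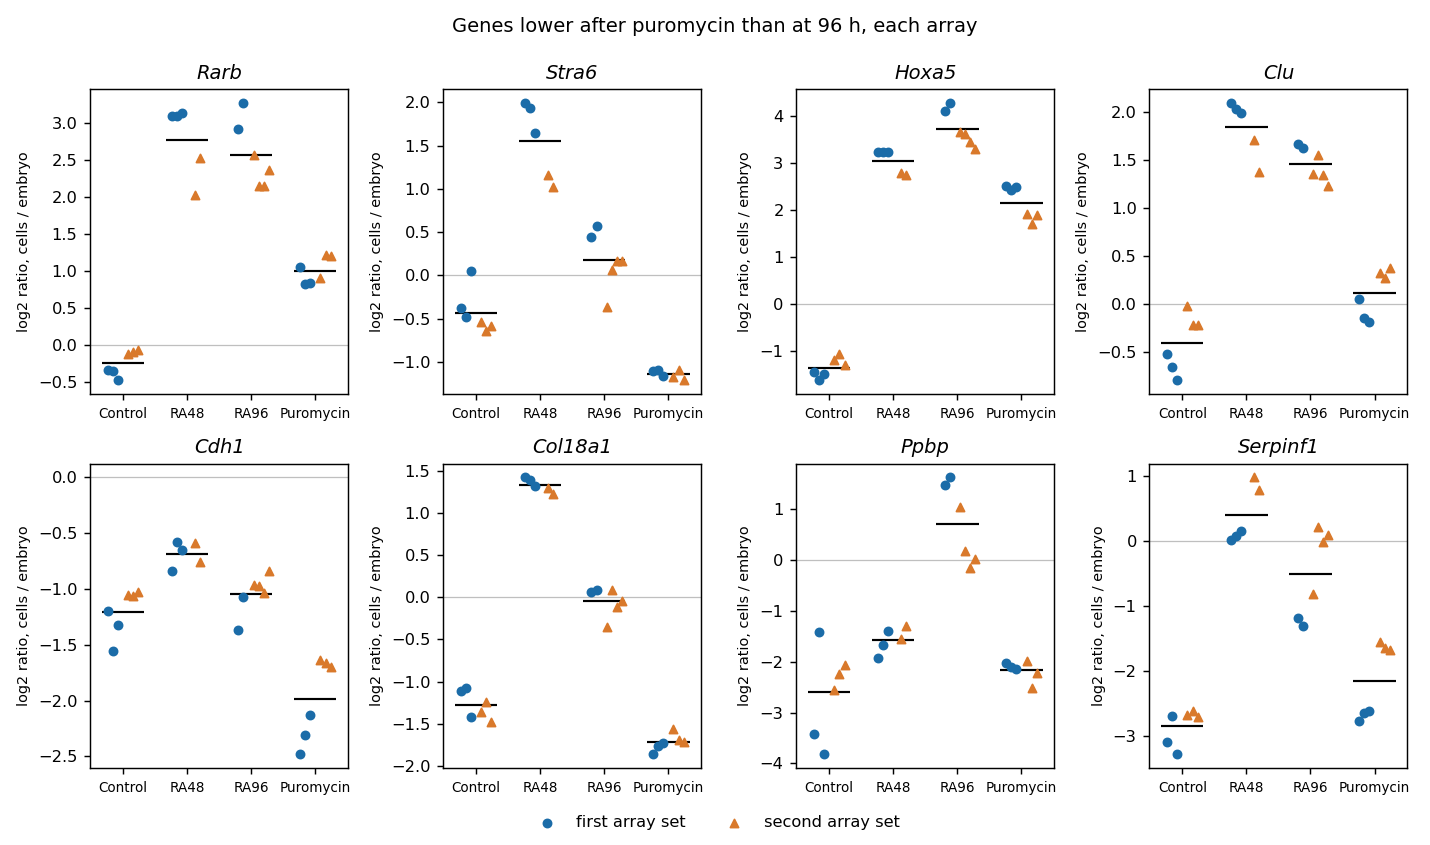
Log2 ratios of cell over embryo RNA (y axis) on each array for 8 genes lower in Puromycin than in RA96, by group; circles are the first array set, triangles the second, and bars the group means. Rarb, Stra6, Hoxa5 and Clu rose between Control and RA48 and fell after puromycin, Ppbp was high in RA96 and not in the other groups, and Cdh1 fell further in the first set (-1.09) than in the second (-0.71).

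The overlap with the first step of the protocol was counted in the same fit. RA48 and Control share no array with RA96 and Puromycin. Both contrasts still share each gene's estimate of spread and set effect, so the calls of the 2 steps are not independent. Of the 28 genes that fell by at least 2-fold, 24 (85.7%) had risen from Control to RA48 and 1 (3.57%) had fallen. Among all genes tested, 24.8% rose and 24.6% fell over that first step. Of the 41 genes that rose by at least 2-fold, 21 (51.2%) had risen early and 3 (7.32%) had fallen. For the full lists of called genes the shares were lower: 290 of 647 falls (44.8%) and 305 of 871 rises (35.0%) had risen early, and 134 (20.7%) and 240 (27.6%) had fallen early. Read the other way, those 290 and 305 genes were 13.5% and 14.1% of the 2156 early rises, so most early rises were not called in either direction after puromycin.

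Of the epithelial genes measured, several fell and none rose. Cdh1, E-cadherin of epithelial junctions, read -1.37 and -1.07 in first-set RA96 arrays and -0.96, -0.97, -1.04 and -0.84 in the second set, against -2.48, -2.31 and -2.13, and -1.64, -1.66 and -1.70 after puromycin. All 6 Puromycin arrays lay below all 6 RA96 arrays (-0.89 ± 0.10, 1.85-fold lower, adjusted p = 5.8e-06). Of 26 measured epithelial genes 10 fell and none rose, 38.5% against 7.45% of all genes and 0.00% against 10.0%, with 4 falls under the random batch. The median was -0.20, and the mean log2 ratio over the 26 genes was -0.32 to -0.14 on RA96 arrays and -0.52 to -0.47 on Puromycin arrays. Krt19, a keratin of simple epithelia, fell from between -1.38 and -0.81 to between -2.18 and -2.02 (-1.09 ± 0.15, adjusted p = 3.55e-05). Dsg2, a desmosomal cadherin, fell by 0.99 on the log2 scale (SE 0.17, adjusted p = 0.000397) and Cldn4, a tight junction claudin, by 0.98 (SE 0.11, adjusted p = 8.46e-06), although neither was called without the set in the fit (0.415 and 0.13). Epcam, Cldn3 and Krt18 differed by -0.25, -0.24 and -0.50 and were not called.

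In the list of mesenchymal transition genes, 6 of 15 rose (40.0% against 10.0% of all genes) and none fell. Cdh11, a cadherin of mesenchyme, read -0.79 and -0.76 in first-set RA96 arrays against 0.36, 0.34 and 0.27, and -0.89, 0.41, 0.34 and 0.49 against 1.99, 1.74 and 1.89 in the second set (1.49 ± 0.18, adjusted p = 1.29e-05). RA96 replicate 2 lay with the first-set arrays for this gene. It also lay nearer to them than to the rest of its set for Ppbp, Sox2 and Cdkn1a, but not for Mylk. Snai1, a repressor of Cdh1, rose by 0.86 ± 0.17 (adjusted p = 0.00186, 0.0647 with the random batch) and Axl, a receptor tyrosine kinase, by 0.61 ± 0.12 (adjusted p = 0.00168, 0.122 with the random batch; 1 of 2 probes called). Cdh2, Twist1 and Zeb1, N-cadherin and further factors of this class, differed by -0.01, -0.04 and -0.23 and were not called. The list's median was 0.11 and 2 of its rises were called with the random batch.

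Of 22 measured pluripotency genes 4 fell and 2 rose (18.2% against 7.45% of all genes and 9.09% against 10.0%, median -0.09), and with the random batch 2 rose and none fell. Nanog, a core factor of that network, read -0.69 to -0.20 in RA96 and -0.60 to -0.21 in Puromycin (-0.07 ± 0.09, adjusted p = 0.656), against a Control mean of 0.70. Sox2, another, read 0.09 and 0.11 in first-set RA96 arrays against -0.96, -1.13 and -1.18, and 0.29, 1.00, 1.19 and 1.12 against 0.10, -0.19 and -0.27 in the second set. The groups did not overlap within either set, yet the change of -1.08 ± 0.42 was not called (adjusted p = 0.0981). The Control arrays, with an SD of 1.56, share in that estimate of spread, and the fit of the 12 arrays alone called the gene. Lefty1, Dnmt3b and Nr6a1 fell by 0.76, 0.58 and 0.51 on the log2 scale, none of them called with the random batch (adjusted p = 0.0938, 0.0868 and 0.063), and Klf2 rose by 0.95 ± 0.15 (adjusted p = 0.000187). Pou5f1 had no probe with its symbol alone and was not analysed here.

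Markers of other lineages that such cultures can hold were counted against the same shares of all genes, 10.0% higher and 7.45% lower. Of 23 neural and neural crest markers 1 rose and 2 fell (4.35% and 8.70%; 1 fall with the random batch), with Dcx, doublecortin of young neurons, the largest at -0.90 ± 0.11 (adjusted p = 1.29e-05). Of 26 cardiac and skeletal muscle markers 4 rose and 1 fell (15.4% and 3.85%), none called with the random batch, with Actc1, cardiac actin, at 0.56 ± 0.13 (adjusted p = 0.00492, 0.158 with the random batch). Endoderm markers gave 4 rises and 2 falls among 19 (21.1% and 10.5%), and 1 and 2 with the random batch, among them Lama1 and Col4a1, which are also basement membrane genes. Endothelial markers gave 1 rise among 12 (8.33%), that of Flt1 (0.53 ± 0.10), and blood and macrophage markers 3 rises among 11 (27.3%). Neither list had a fall, and none of these 4 rises was called with the random batch (0.0519 for Flt1). Coro1a, a blood list rise, shared with Actc1 its highest ratio in every group, at 0.72 in Control, 0.77 in RA48, 0.41 in RA96 and 1.05 in Puromycin. The 2 genes also shared their second-set change (0.70) and their adjusted p in that set alone (0.00288). Coro1a and Actc1 are each counted in their list above, but in the second set they cannot be taken as separate rises. Neither was called in the first set alone (adjusted p = 0.255 for Coro1a and 0.334 for Actc1). There were, for mesenchymal, fat, cartilage and bone markers, 1 rise and 1 fall among 13 (7.69% each way), and only the rise was called with the random batch. The fall was that of Pdgfrb, a growth factor receptor gene. The rise in that last list was Tnfrsf11b, osteoprotegerin, a decoy receptor that smooth muscle and bone cells secrete, from between -1.61 and -1.13 to between 0.64 and 0.71 (2.07 ± 0.30, 4.21-fold, adjusted p = 8.39e-05; 0.0516 in the first set alone). Vascular endothelial and macrophage markers stayed below the embryo reference in the mean of each list on each array, at -1.37 to -0.74 over the 12 arrays for endothelial and -1.62 to -0.81 for blood and macrophage genes. Their part in the rise of Ccl2 and Vcam1 was not tested.

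Stress genes were counted in the same way, and drug, longer culture and any removal of retinoic acid cannot be told apart in their changes. Oxidative stress and metal response genes gave the highest share of rises of the 50 lists. Of 24 measured, 14 rose and 3 fell (58.3% and 12.5% against 10.0% and 7.45% of all genes). The median was 0.31 (0.40 in the first set and 0.24 in the second). With the random batch 5 rises and no fall were called. Mt1, a metallothionein, rose from between -3.79 and -3.54 to between -1.82 and -1.66 in the first set, and from between -2.35 and -1.94 to between -1.43 and -1.24 in the second (1.24 ± 0.16, adjusted p = 2.89e-05). Mt2 rose by 0.85 ± 0.16 (adjusted p = 0.000923), at 1.45 and 0.38 by set and not called without the set in the fit (0.426). Sqstm1, the autophagy receptor p62, rose by 0.84 ± 0.13 (adjusted p = 0.00022). Gclm, Hmox1, Gclc, Txnrd1 and Nqo1, targets of the factor Nrf2, rose by 0.67, 0.46, 0.45, 0.39 and 0.29, of which Gclm and Gclc were called with the random batch (0.00623 and 0.027) and Hmox1, Txnrd1 and Nqo1 were not (0.106, 0.304 and 0.187), while Nfe2l2, the Nrf2 gene, differed by -0.13 and was not called. Gsta4, a glutathione transferase, and Gpx3, a secreted peroxidase, fell by 0.56 and 0.46 on the log2 scale (0.126 and 0.235 with the random batch).

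Of 23 heat shock and chaperone genes 6 rose and 1 fell (26.1% and 4.35% against 10.0% and 7.45% of all genes, median 0.12; 2 rises and 1 fall with the random batch), led by Hspb1 and by Dnajb4, a cochaperone of Hsp70, at 0.71 ± 0.10 (adjusted p = 6.09e-05). Hsp90aa1, Hspa8 and Hsph1, all cytosolic chaperones, differed by 0.01, -0.03 and -0.10 and were not called. Stip1, a cochaperone that joins Hsp70 and Hsp90, fell by 0.64 on the log2 scale (SE 0.13, adjusted p = 0.00156), with 1 of its 2 probes called. In the unfolded protein and amino acid response 1 of 28 rose and 4 fell (3.57% and 14.3%), and 1 rose and 2 fell with the random batch. Nupr1, a stress-induced chromatin protein, rose by 0.84 ± 0.11 (adjusted p = 3.21e-05), and Atf3, Shmt2, Wars and Sars fell (for Shmt2 and Sars 0.0608 and 0.404 with the random batch). Atf4 and Hspa5 differed by 0.05 and 0.21 and were not called.

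None of 38 measured ribosomal protein genes rose and 4 fell (10.5% against 7.45% of all genes; 1 fall with the random batch), with a median of -0.15, and Rps6 fell the furthest of those called, by 0.50 on the log2 scale (SE 0.09, adjusted p = 0.00057). Ribosomal protein genes have many pseudogene copies, so cross-hybridization of their probes cannot be judged here. Translation factors gave 2 rises and 1 fall among 27 (7.41% and 3.7%), and ribosome biogenesis genes 2 and 2 among 27 (7.41% each way). Proteasome genes gave 3 rises and no fall among 30 (10.0% higher). The shares of all genes were 10.0% higher and 7.45% lower, and no member of these lists was called with the random batch. Of 5 drug efflux transporters 2 rose and none fell (40.0% higher against 10.0% of all genes), and 1 rise was called with the random batch. Abcc1 rose by 0.45 ± 0.08 (adjusted p = 0.000568), but its probes gave 0.82 and 0.09 (adjusted p = 0.000132 and 0.692). Abcg2 rose by 0.43 ± 0.13 (adjusted p = 0.026, 0.289 with the random batch), while Abcb1b, a P-glycoprotein gene, differed by 0.00.

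Cdkn1a, the p21 inhibitor of cyclin-dependent kinases, read 0.46 and 0.55 in first-set RA96 arrays and 0.32, -0.15, -0.42 and -0.37 in the second set, against 0.92, 0.96 and 1.15, and 1.25, 0.97 and 0.87 after puromycin. All Puromycin arrays lay above all RA96 arrays (0.95 ± 0.15, 1.93-fold, adjusted p = 0.000206). Cdkn2b, the p15 inhibitor, rose by 0.82 ± 0.15 (adjusted p = 0.0011, 0.0725 with the random batch) and Rbl2, a relative of the retinoblastoma protein, by 0.69 ± 0.20 (adjusted p = 0.0274, 0.264 with the random batch). In all 5 of 14 cell cycle inhibitors and arrest genes rose and 1, Gas1, fell (35.7% and 7.14% against 10.0% and 7.45% of all genes, median 0.04), and 2 rose and 1 fell with the random batch. Of 23 p53 targets 3 rose and 2 fell (13% and 8.70%, median -0.03), 1 each way with the random batch, and Mdm2, the feedback inhibitor of p53, differed by 0.20 and was not called.

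Of 48 DNA replication genes 2 rose and 3 fell (4.17% and 6.25% against 10.0% and 7.45% of all genes, median -0.04), 1 each way with the random batch, and of 39 mitosis genes 2 rose and 6 fell (5.13% and 15.4%, median -0.01), none of the latter called with the random batch. Of 11 genes of histones and chromatin replication none rose and 2 fell (18.2%, median -0.12), Lmnb1, which encodes lamin B1, by 0.74 and H2ax, a histone variant gene, by 0.73 on the log2 scale, both also called with the random batch (0.0239 and 0.00813). Rrm2, a subunit of ribonucleotide reductase, rose by 0.55 ± 0.08 (adjusted p = 8.74e-05) and Dut, which removes dUTP, fell by 0.54 on the log2 scale (SE 0.06, adjusted p = 7.76e-06) with 1 of 2 probes called. Stmn1, a microtubule regulator, fell by 0.70 (SE 0.16, adjusted p = 0.00626, 0.184 with the random batch). Mki67, Pcna and Top2a, common proliferation markers, differed by 0.13, 0.09 and 0.15 and were not called. Of 23 apoptosis genes 7 rose and none fell (30.4%), no rise being called with the random batch, with Fas the largest and Bcl2, an inhibitor of cell death, next at 0.48 ± 0.10 (adjusted p = 0.00288, 0.0667 with the random batch).

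**Figure D3:**
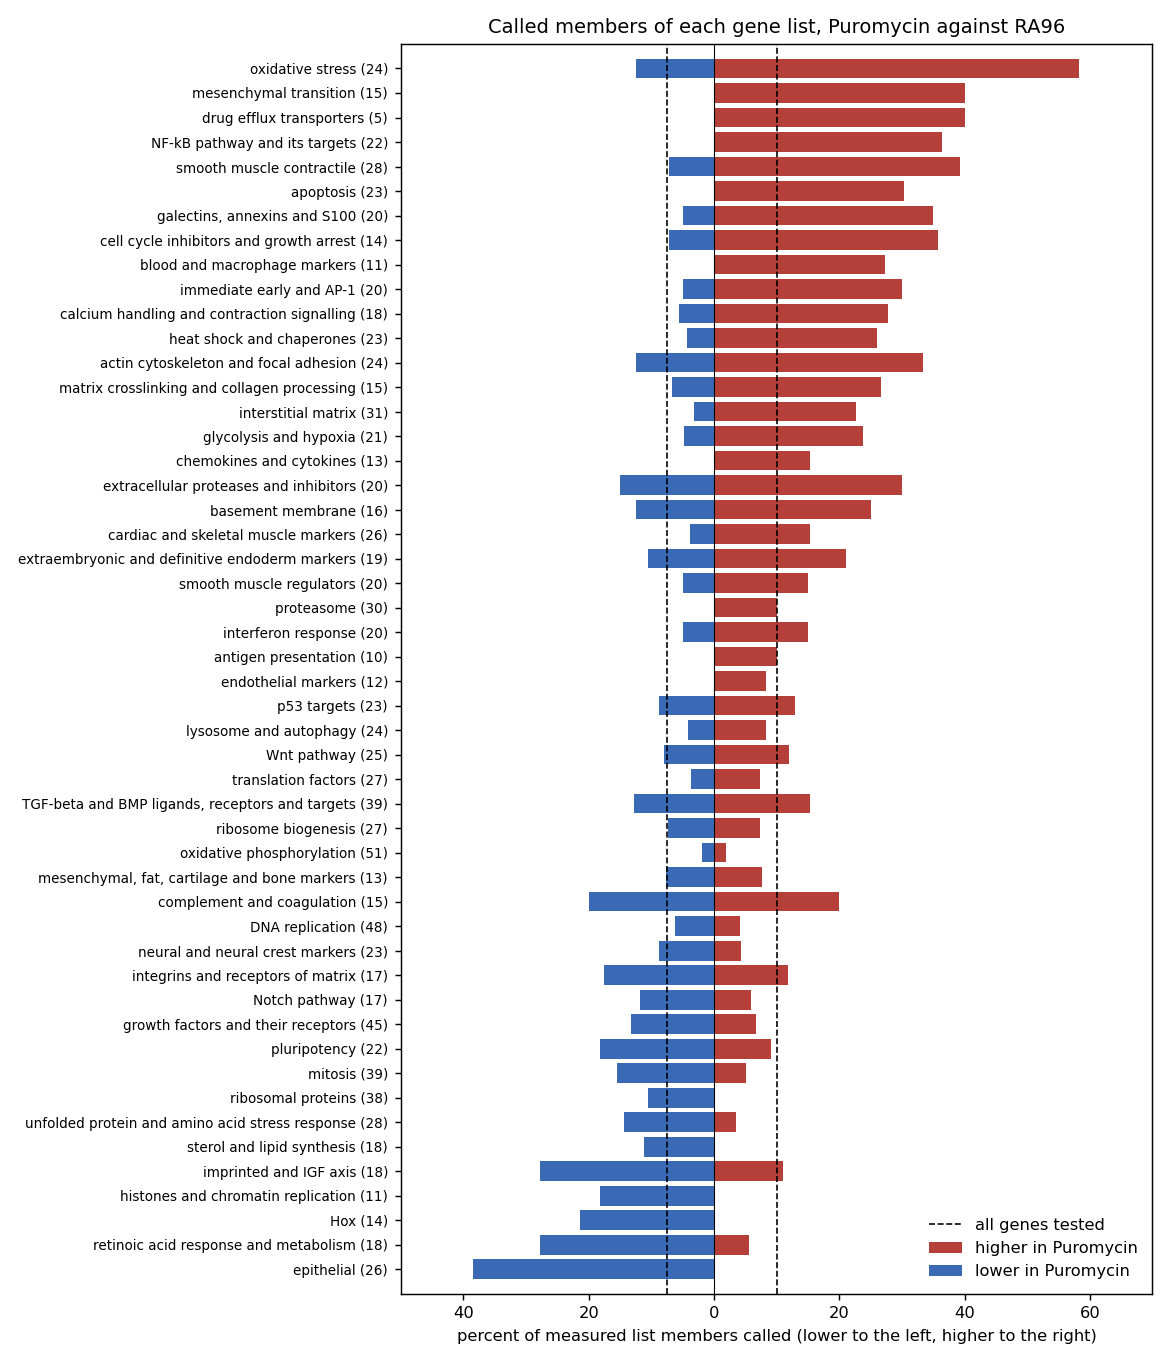
Percent of the measured members of each of the 50 gene lists called higher (red, to the right) or lower (blue, to the left) in Puromycin than in RA96, with the number of measured members in parentheses; dashed lines are the shares among all genes tested, 10.0% and 7.45%. Oxidative stress genes had 58.3% higher, smooth muscle contractile genes 39.3%, and epithelial genes 38.5% lower with none higher.

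**Figure D4:**
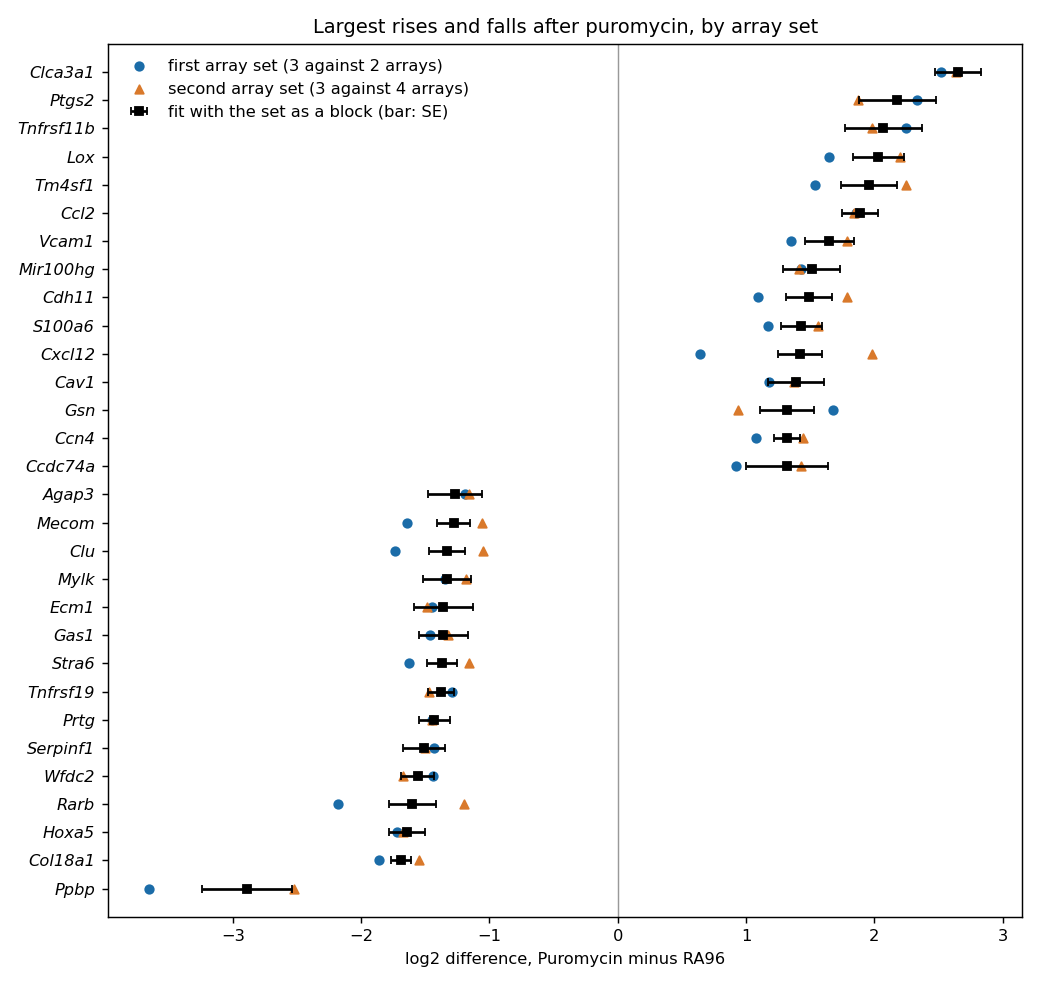
Log2 difference, Puromycin minus RA96 (x axis), of the 15 genes with the largest rises and the 15 with the largest falls; squares are the fit with the set as a block with its SE, circles the first set alone (3 against 2 arrays) and triangles the second (3 against 4). One direction in both sets follows from the choice of genes without overlap within either set. The sets lay furthest apart for Cxcl12 (0.64 and 1.98) and, among the falls, Ppbp (-3.65 and -2.52).

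The array sets themselves gave changes that were called different for a minority of genes. A test of the difference in change between the sets called 230 of 8683 genes (2.65%), and over all rows 384 (2.15%). Of these rows 80 were also called for Puromycin against RA96 and 292 had opposite signs in the sets. At an unadjusted p under 0.05 the same test counted 2668 of 17863 rows. Among the 38 genes that were named in every case or for the size of their change, Rarb, Cxcl12 and Clu differed between sets, each with one direction in both. Over all 198 genes with array values tabulated for this comparison, 16 differed between sets. The first set holds 2 RA96 arrays, so a change within it rests on them.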

How the data were processed

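RNA of A404 cells (Cy5) and of pooled embryos (Cy3) was hybridized to Agilent oligonucleotide arrays with no dye swap, scanned on an Agilent scanner and quantified with Feature Extraction, per the labels. The deposited table holds 1 log ratio per probe and array, read here as log10 of Cy5 over Cy3. Base, centring and direction are not stated, so the base rests on the range of the values and the direction on the dyes. Values were divided by 0.301 to give log2 ratios. If the base were 2, all folds would be smaller and p-values the same. Without spot intensities a detection limit cannot be set, and the number of arrays limits the precision.

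Of 21446 rows, 1166 with at most 6 significant digits, no gene and 2243 exact zeros were left out as probable control spots. Of the other 20280 probes 11100 had 1 gene symbol, 442 several and 8738 none. Probes of one symbol were averaged (1926 genes had more than 1), which left 17863 rows, 8683 of them genes. The gene identifiers of 37 probes were not in the reference table.

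All 23 arrays were fitted with limma 3.58.1 (R 4.3.3), with group means and array set as a block, empirical Bayes moderation and Benjamini-Hochberg adjustment over all rows. Rows were called at an adjusted p under 0.05, and the fit was tested on simulated data. The random batch is duplicateCorrelation (statmod 1.5.0) on group and set together. A second test asked whether the change differed between sets.

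The members and the 50 gene lists (1070 of 1618 listed genes measured) were chosen with earlier results of these data known. Genes were named by a rule: Ccl2, Lox, Rarb, Cdh1, Acta2, Cnn1, Myh11, Myl9, Nanog, Sox2 and Cdkn1a in every case, the 15 largest rises and 15 largest falls among called genes whose groups did not overlap within either set, clone names passed over, and up to 3 called members each way per list. Further list members without a p were named after their values were seen. For the largest changes, a call, the lack of overlap and one direction in both sets follow from the rule. Other settings tried are given with their effect in the closing section. Python 3.11.15, numpy 2.4.6, pandas 2.3.3 and matplotlib 3.10.9 were used for tables and figures.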

Additional observations from a re-analysis of the deposited data

Results flagged for a closer look

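Each array of the 2 groups was compared with the others of its group, both array sets together, for 198 named genes, 396 combinations of gene and group. By Dixon's criterion, which chance alone meets in about 1 of 20, an array stood apart in 7. That is fewer than chance alone would give at that rate, and the distance between the sets can hide an array that stands apart. In RA96, replicate 2 was lowest for Gas1 (1.46, the others 1.75 to 1.86) and for Acvr2b, an activin receptor (-0.36, the others 0.07 to 0.24). RA96 replicate 5 was lowest for B2m (0.17, the others 0.43 to 0.55) and Anxa5 (0.65, the others 0.90 to 1.01), and RA96 replicate 4 was lowest for Cd44 (0.57, the others 0.84 to 0.97). Puromycin replicate 4 was highest for Cubn, cubilin (0.38, the others -0.11 to 0.06), and for Tpi1, a glycolytic enzyme (-0.31, the others -0.67 to -0.61).

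The change from RA96 to Puromycin differed between the array sets for 16 of the 198 genes by the interaction test (limma, adjusted over all rows), each with one direction in both sets. Differences are first set minus second. The fall was larger in the first set for Rarb (-0.98, adjusted p = 0.0111), Clu (-0.70, 0.0184), Pxn (-0.66, 0.0299), Stip1 (-0.76, 0.0025) and Dcx (-0.65, 0.0426). The rise was smaller in the first set for Cxcl12 (-1.35, 0.00105), Thbs1 (-1.07, 0.00712), Col8a1 (-0.80, 0.0408), Plod2 (-1.21, 0.000135), Prss23 (-1.07, 0.013), Dnajb4 (-0.48, 0.0372), Bcl2 (-0.65, 0.0131) and Ier3 (-1.12, 0.0335). The rise was larger in the first set for Mt1 (1.22, 0.00426), Mt2 (1.08, 0.00264) and Fosl1 (1.16, 0.0359). Set and any difference between cultures cannot be told apart, because no label names the sets.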

How the results depend on the processing

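The fit with the array set as a block called 2281 rows for Puromycin against RA96 (4613 at an unadjusted p under 0.05). The count was 942 without the set, 431 with group and set as a random batch (all 431 among the 2281), 3758 with array weights, 1101 at an adjusted p under 0.01, 104 with a change of at least 2-fold and 0 with that minimum if the ratios were log2, since every change then shrinks to 0.301 of its size. Under 12 arrays alone, each set alone, centred, quantile or scale normalized arrays, single probes, trended and robust variance, and control-like rows kept, it ran from 1638 to 2998. Leaving out each array in turn gave 1729 to 2295. Replicate numbers were not taken to pair the samples. Same-numbered deviations from the group mean correlated from -0.379 to 0.675, and 2 of 6 numbers matched best with themselves. The lowest value was that of replicate 2, whose arrays lie in different sets, so these values also carry the set. With the set mean removed as well, they ran from -0.108 to 0.237. Whether a shared number marks a shared culture cannot be told from them. The replicate block in place of the set gave 1379 rows, and with the set 1832. The difference between sets, 384 rows, ran from 153 to 769 on leaving out single arrays: it was 153, 769, 160 and 235 without RA96 replicate 1, 2, 3 or 5, and 171, 182, 201, 208 and 227 without Puromycin replicate 2, 3, 4, 5 or 6. The cause was not tested, beyond the loss of 1 array. Of the 38 genes named in every case or for their size, 33 were called, 29 of them under every alternative, and none reversed. Of all 198 named genes 193 were called, 59 under every alternative. In the first set alone Mybbp1a (0.00) and Igfbp4 (0.01) no longer had the sign of the full fit. Each first-set value rests on 2 RA96 arrays.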

Other observations

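Inhba, which encodes the activin A subunit, read 3.53 and 3.59 in first-set RA96 arrays and 2.93 to 3.49 in the second set, against 4.49 to 4.77 and 4.11 to 5.03 after puromycin (1.31 ± 0.25, adjusted p = 0.00117, 0.082 with the random batch), and the groups did not overlap within either set. Tgfb3, a TGF-beta ligand, rose by 0.55 ± 0.10 (adjusted p = 0.000699), while the receptors Acvr2b and Tgfbr3 and the ligand Bmp7 fell by 0.52, 0.51 and 0.47 on the log2 scale, none of them called with the random batch (0.0891, 0.0708 and 0.0592). Of 39 genes of the TGF-beta and BMP list 6 rose and 5 fell (15.4% and 12.8% against 10.0% and 7.45% of all genes), and 2 rose and none fell with the random batch. Dkk2, a secreted Wnt modulator, rose by 1.08 ± 0.27 (adjusted p = 0.0106, 0.273 with the random batch), and Wnt5a and Wnt2 by 0.47 and 0.37 (0.264 and 0.227 with the random batch). Of 25 Wnt genes 3 rose and 2 fell (12% and 8%), and none rose and 1 fell with the random batch. Notch genes gave 1 rise, Jag1, and 2 falls among 17 (5.88% and 11.8%), and that rise alone with the random batch.

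Of 45 growth factor and receptor genes 3 rose and 6 fell (6.67% and 13.3% against 10.0% and 7.45% of all genes), and none rose and 2 fell with the random batch. Of 18 imprinted and IGF genes 2 rose and 5 fell (11.1% and 27.8%), and none rose and 1 fell with the random batch. Mdk, the heparin-binding growth factor midkine, fell from between 0.69 and 0.78 to between -0.03 and 0.11 in the first set, and from between 1.38 and 1.81 to between 0.28 and 0.47 in the second (-1.03 ± 0.11, adjusted p = 4.3e-06). Kit, the receptor of stem cell factor, fell by 0.95 on the log2 scale (SE 0.15, adjusted p = 0.000239), and Igfbp2, an IGF binding protein, by 0.80 (SE 0.12, adjusted p = 0.00012). Igfbp5, another, rose by 0.81 ± 0.20 (adjusted p = 0.0108, 0.133 with the random batch). Among metabolic genes, sterol and lipid synthesis gave no rise and 2 falls among 18 (11.1%; Fads2 and Fads1, by 0.72 and 0.54 on the log2 scale, 0.198 and 0.0228 with the random batch), with a median of -0.28. Glycolysis and hypoxia genes gave 5 rises and 1 fall among 21 (23.8% and 4.76% against 10.0% and 7.45%), none called with the random batch, and oxidative phosphorylation genes 1 and 1 among 51 (1.96% each way). Calcium handling genes gave 5 rises and 1 fall among 18 (27.8% and 5.56%), and 1 rise and no fall with the random batch, led by Avpr1a, the vasopressin receptor of smooth muscle, at 0.96 ± 0.20 (adjusted p = 0.00211, 0.125 with the random batch).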
